A study of Rattus norvegicus with 8 samples.

Results

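The collagen genes are represented on these rat liver arrays by 25 probes of 18 genes, out of 30367 probes. Members were all probes whose transcript accession maps to a rat symbol made of Col, a number, the letter a and a number. The rule uses names alone, but it was set with earlier results of these data known. Of the 44 rat genes with such a symbol in the RefSeq table, the other 26 matched no probe through an accession and were not analysed here; Col4a2, Col5a2, Col6a1, Col6a3 and Col15a1 are among them. The classes compared were 9 probes of 7 fibrillar collagens, 3 probes of 2 basement membrane collagens (Col4a1 and Col4a4), and 13 probes of 9 other collagens. Total RNA was measured in 5 livers of male rats on a high fat diet, given as NAFLD (non-alcoholic fatty liver disease) in the labels, and in 3 livers of control rats on standard chow. Every rat was 22 weeks old and had been on its diet for 14 weeks. The labels name no strain and do not state that each sample came from a separate animal, so a p-value here weighs a difference against the spread among the arrays, which may be technical.

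Collagens are secreted proteins whose chains wind around each other in a triple helix, and they carry most of the tensile strength of the extracellular matrix. Fibrillar collagens such as types I, III and V assemble into the cross-striated fibrils that accumulate when a liver scars; in liver they come mainly from hepatic stellate cells and portal fibroblasts. Type IV collagen forms the sheet-like network of basement membranes. The remaining types decorate fibrils, form beaded filaments or anchoring fibrils, or sit in cell membranes, and types II, IX and XI are best known from cartilage.

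None of the collagen probes passed the test between the diets. Probes were kept if detected, meaning well above background, on 3 or more of the 8 arrays of either diet, and 21 collagen probes of 15 genes were kept. Of these 21, 0 passed an adjusted p of 0.05 (limma with Benjamini-Hochberg adjustment over all 25627 probes tested), where 884 of all probes, or 3.45%, did so. The smallest adjusted p of a collagen probe was 0.0911, for a Col11a2 probe that was well above background on no chow array. Under other processing, 1 of 21 collagen probes passed with the authors' value table (4.83% of all probes did), 2 with array weights (10.5%), 4 with the arrays of scan day 1 alone (12.3%), 1 with the high-fat arrays of scan 1 alone (7.82%) and 1 without chow array 2 (1.79%). None passed with scan as a random block (0.297%; 6.77% at an unadjusted p under 0.05). At an unadjusted p under 0.05 there were 8 collagen probes, 4 higher and 4 lower on the high fat diet. That is 38.1% of the 21, beside 20.1% of all probes (10.9% of all probes higher and 9.14% lower). Of the 4 higher probes, 2 (a Col11a2 and a Col4a1 probe) were detected on no chow array and were kept through the high-fat arrays alone. Their p-values rest on undetected chow readings, so no result is read from the share of 38.1%. The median log2 fold change of high fat diet over chow was −0.09 over the 21 collagen probes, with 10 positive and 11 negative values, and 0.00 over all probes. By class the median was −0.31 for the fibrillar, 0.79 for the basement membrane and −0.09 for the other collagens. The median of the basement membrane class rests on 3 probes, and 2 of these were well above background on no chow array. Over all 6402 kept probes that were not above background on every array, the median was 0.37 and 73.9% of the values were positive, so the class medians are a description only. Over the 15 probes above background on all 8 arrays, the medians were −0.39 for 8 fibrillar probes, −0.11 for 1 basement membrane probe and −0.18 for 6 probes of other collagens, against −0.07 for all 19225 probes of that kind.

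**Figure D1:**
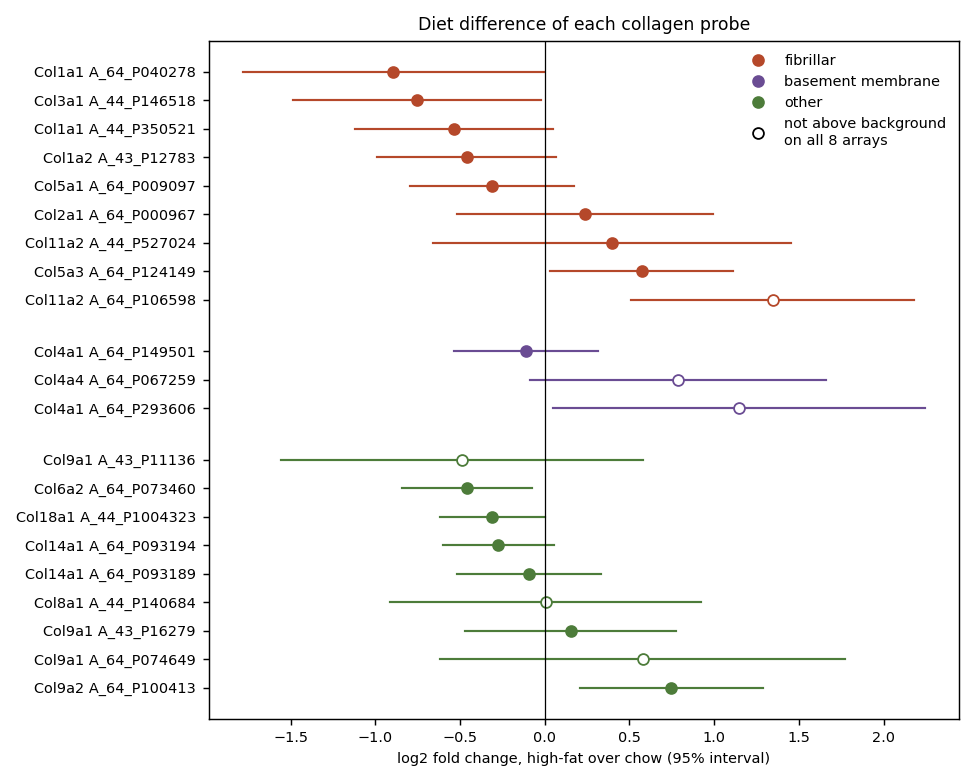
Log2 fold change of high fat diet over chow (x axis) for each of the 21 kept collagen probes (rows, by class), with its 95% interval before any adjustment for multiple tests. Open symbols mark the 6 probes that were not above background on all 8 arrays; their fitted values are set against readings that include undetected ones and are no measured folds. Among the filled symbols, values run from −0.89 for a Col1a1 probe to 0.75 for Col9a2.

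Several facts of the arrays touch every result. High-fat arrays were brighter: the 75th percentile signal averaged 856 ± 134 intensity units against 379 ± 156 on chow arrays (SD, n = 5 and 3), and 83.9% ± 5.91 against 69.1% ± 2.43 of probes were well above background (exact permutation p = 0.0179 for each measure, two-sided, the smallest that 56 splits allow; adjusted 0.0179). High-fat arrays 1 and 4 shared a scan time stamp (scan 1), as did high-fat arrays 2, 3 and 5 (scan 2) and the chow arrays (scan 3). No scan held both diets, so scan and diet cannot be told apart. All 8 hepatocyte markers were above background on all 8 arrays. The values below are log2 signals relative to the 75th percentile of the array, and they compare arrays for a given probe, not probes or genes with each other. With so few arrays, each difference is imprecise. Chow values are listed in the order of chow arrays 1 to 3.

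Types I and III make up the bulk of scar fibrils in liver. Col1a1 encodes the alpha 1 chain of type I and Col1a2 its alpha 2 chain, and Col3a1 encodes the single chain of type III. Col3a1 read 3.47, 3.53, 3.33, 2.74 and 2.66 on high-fat arrays 1 to 5, against 4.58, 3.72 and 3.40 on the 3 chow arrays. Chow array 1 stood highest and chow array 3 lay within the range of the high-fat arrays, so the diets overlapped. Its log2 fold change was −0.76 ± 0.32 (SE), a ratio of 0.592 with a 95% interval from 0.357 to 0.983, and it did not pass (limma adjusted p = 0.237).

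Col1a2 (probe A_43_P12783) read 1.14, 1.41, 1.17, 0.97 and 0.98 on high-fat arrays 1 to 5, against 2.16, 1.45 and 1.18 on the 3 chow arrays. The overlap was of the same form, with chow array 1 alone well above the rest. Its log2 fold change was −0.46 ± 0.23 (SE, limma adjusted p = 0.309).

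Col1a1 had 2 probes of the same transcript. Probe A_44_P350521 read −0.41, −0.04, −0.24, −0.66 and −0.39 on high-fat arrays 1 to 5, against 0.81, −0.26 and 0.01 on the 3 chow arrays. The other, A_64_P040278, read −2.29, −2.52, −2.70, −2.76 and −3.47 on the high-fat arrays, against −0.92, −2.09 and −2.56 on the chow arrays. On both probes chow array 1 was the highest and another chow array lay among the high-fat ones. Their log2 fold changes were −0.53 ± 0.26 and −0.89 ± 0.39 (SE, limma adjusted p = 0.287 and 0.247).

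Chow array 1 carried much of the difference in the type I and III genes. Without it the log2 fold change was −0.42 for Col3a1 (limma adjusted p = 0.577), −0.18 for Col1a2 (0.734), and −0.22 and −0.42 for the Col1a1 probes A_44_P350521 and A_64_P040278 (0.688 and 0.603). These values kept their negative sign in every alternative processing tried. With a normexp model of the background, which moved the median of all probes to −0.30, the fitted Col1a2 value was −0.32. Relative to that median it was −0.02. Chow array 1 was the highest of the 8 arrays for 8 of the 15 collagen probes above background everywhere, against 10.8% of all such probes.

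Type V collagen sits inside type I fibrils and limits their width. Col5a1, its alpha 1 chain, read −1.86, −1.86, −1.82, −2.15 and −2.23 on high-fat arrays 1 to 5, against −1.23, −1.73 and −2.06 on the 3 chow arrays. The groups overlapped through chow array 3, and the log2 fold change was −0.31 ± 0.21 (SE, limma adjusted p = 0.458; −0.09 without chow array 1). Col5a3, the alpha 3 chain, was above background on all arrays and had the opposite sign. It read −3.18, −2.36, −2.64, −3.06 and −2.39 on the high-fat arrays, against −3.16, −3.57 and −3.17 on the chow arrays. The high-fat arrays of scan 1 lay close to chow and those of scan 2 above all chow arrays. This gave a log2 fold change of 0.57 ± 0.24 (SE, limma adjusted p = 0.226).

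Promoter sequence was read for 2 fibrillar members that kept a negative value in every processing, Col1a2 and Col5a1. It shows the letters upstream of their annotated starts, and the bases nearest the annotated start are not included. Whether transcription begins at the annotated start, and whether a core promoter lies in these windows, was not tested. The table of RefSeq promoters on the GRCr8 assembly matched 13 of the 18 genes; Col1a1, Col2a1, Col3a1, Col6a2 and Col14a1 had no entry. Both windows run from 250 to 101 bases before the annotated start, at chr4:33518307-33518456 for Col1a2 and chr3:31606630-31606779 for Col5a1, each on the plus strand. Capitals mark the CCAAT box (CCAAT or ATTGG), the TATA box (TATAAA or TTTATA) and the GC box (GGGCGG or CCGCCC), searched on both strands:
Col1a2: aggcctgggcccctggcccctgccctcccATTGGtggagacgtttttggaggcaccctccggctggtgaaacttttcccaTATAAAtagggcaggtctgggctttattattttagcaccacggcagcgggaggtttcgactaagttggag
Col5a1: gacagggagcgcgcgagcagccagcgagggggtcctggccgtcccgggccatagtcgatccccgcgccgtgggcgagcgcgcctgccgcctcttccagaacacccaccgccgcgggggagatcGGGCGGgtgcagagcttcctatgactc
The Col1a2 window held 1 CCAAT box and 1 TATA box, and the Col5a1 window 1 GC box and neither of the others. A CCAAT box was found in 3 of the 13 collagen windows and in 21.5% of all 33469, a TATA box in 2 of 13 and 7.69%, and a GC box in 4 of 13 and 16.5%. A match is a description of letters in this window and says nothing of binding.

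**Figure D2:**
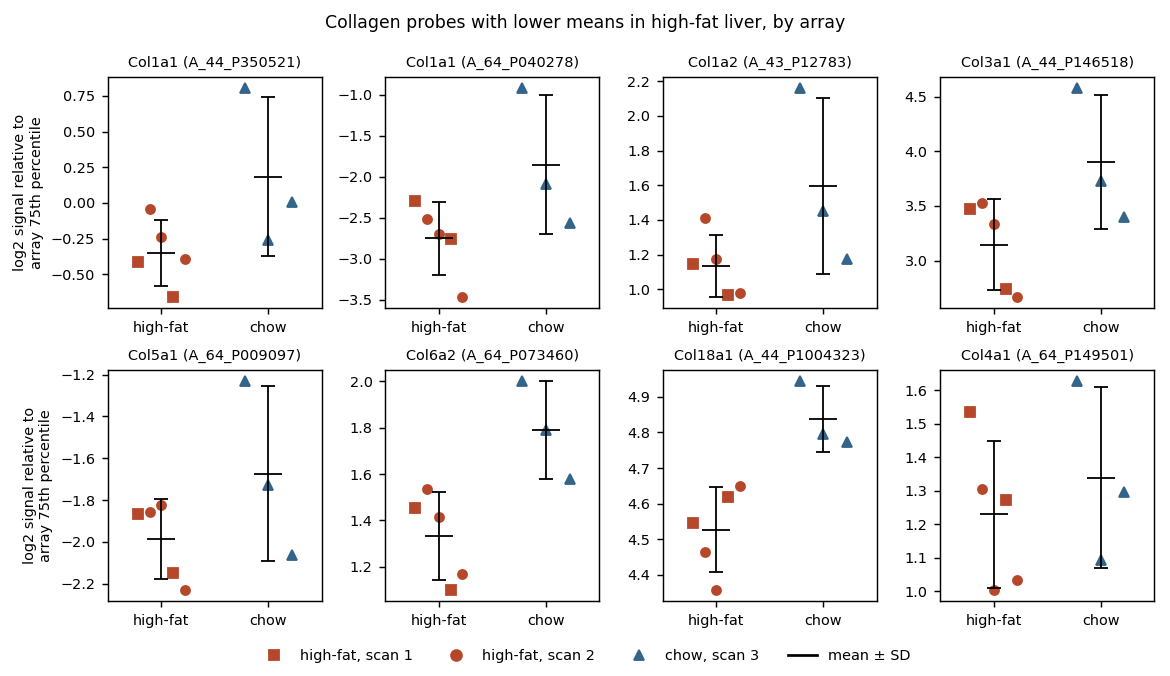
Log2 signal relative to the array's 75th percentile (y axis) on each array for 8 of the 10 collagen probes above background on every array with lower means on the high fat diet (the Col14a1 probes are not shown); squares and circles are high-fat arrays of scans 1 and 2, triangles are chow arrays, and black bars show mean ± SD (n = 5 and 3). Chow array 1, the leftmost triangle, is the highest array in these 8 panels, whereas the Col14a1 probes were highest on high-fat array 1 and on chow array 2; the diets separate without overlap in the Col6a2 and Col18a1 panels.

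Among the probes above background on every array, the diets separated without overlap for Col6a2 and Col18a1. Col6a2 encodes the alpha 2 chain of type VI, which forms beaded filaments around cells. It read 1.45, 1.54, 1.41, 1.1 and 1.17 on high-fat arrays 1 to 5, against 2.00, 1.79 and 1.58 on the 3 chow arrays. All high-fat values lay below all chow values, by a narrow gap. The log2 fold change was −0.46 ± 0.17 (SE), a ratio of 0.729 with a 95% interval from 0.559 to 0.951, and it did not pass (limma adjusted p = 0.182).

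Col18a1 encodes the chain of type XVIII, a basement membrane zone collagen that hepatocytes produce and whose end fragment is endostatin. It read 4.55, 4.46, 4.36, 4.62 and 4.65 on the high-fat arrays, against 4.94, 4.79 and 4.77 on the chow arrays, again with no overlap. Its log2 fold change was −0.31 ± 0.14 (SE), a ratio of 0.806 with a 95% interval from 0.651 to 0.999 (limma adjusted p = 0.247). The third probe without overlap, a dim Col11a2 probe described below, was higher on the high fat diet. These 3 probes are 3 of 21, beside 16.9% of all probes in which the diets did not overlap (7.94% higher, 8.97% lower), a share close to that of the collagens. Without chow array 1 Col6a2 and Col18a1 were at −0.35 and −0.26 (adjusted p = 0.452 and 0.521). Under the normexp background the fitted values of Col6a2 and Col18a1 were −0.29 and −0.44, or 0.01 and −0.14 relative to all probes.

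Col14a1 encodes type XIV, a collagen on the surface of fibrils. Probe A_64_P093189 read 2.05, 1.69, 1.57, 1.76 and 1.27 on high-fat arrays 1 to 5, against 1.84, 1.79 and 1.65 on the 3 chow arrays. Probe A_64_P093194 read −1.42, −1.35, −1.23, −1.64 and −1.47 on the high-fat arrays, against −1.12, −1.07 and −1.26 on the chow arrays. The chow values lay inside the high-fat range on the first probe and overlapped it on the second. Log2 fold changes were −0.09 ± 0.19 and −0.27 ± 0.14 (SE, limma adjusted p = 0.836 and 0.326), with a 95% interval from −0.52 to 0.33 for the first.

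Type IV collagen was measured by Col4a1, the alpha 1 chain found in nearly all basement membranes, and by Col4a4, a chain best known from the kidney glomerulus. The Col4a1 probe above background everywhere (A_64_P149501) read 1.53, 1.30, 1.00, 1.27 and 1.03 on the high-fat arrays, against 1.63, 1.09 and 1.30 on the chow arrays. These ranges overlapped almost in full. The log2 fold change was −0.11 ± 0.19 (SE, limma adjusted p = 0.801), with a 95% interval from −0.53 to 0.32.

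The second Col4a1 probe, A_64_P293606, was detected on each of the 5 high-fat arrays but on 0 chow arrays. It read −5.26, −4.36, −4.36, −5.16 and −4.19 on the high-fat arrays, against −5.03, −7.09 and −5.31 on the chow arrays, with overlap. A chow floor was set at the higher of the probe's own reading and the lowest signal above background on each chow array. The high-fat mean was 1.16-fold above that floor (limma adjusted p = 0.232 for the fit). The floor is not a detection limit. P4ha3, a chain modification gene detected on 0 chow arrays, read −4.86, −4.93 and −4.17 there, where the lowest detected signals were −5.09, −5.04 and −4.55. The 1.16-fold is thus no lower bound on the ratio of means, and it has no error of its own. Only the first probe of this gene gave a measured level on both diets. Col4a4 (A_64_P067259) read −5.46, −5.63, −5.22, −5.66 and −5.73 on the high-fat arrays, against −7.16, −5.22 and −6.59 on the chow arrays. Chow array 2 was as high as the highest high-fat array. The probe was detected on 3 high-fat arrays and 0 chow arrays, and its high-fat mean lay below that floor, so no fold is given (limma adjusted p = 0.296). Leaving out chow array 2 brought Col4a4 past the threshold (adjusted p = 0.0386).

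For several cartilage collagens the high-fat arrays differed widely among themselves. Col2a1, the chain of type II, read −2.82, −1.43, −1.43, −2.28 and −1.56 on high-fat arrays 1 to 5, against −2.11, −2.22 and −2.10 on the 3 chow arrays. High-fat arrays 1 and 4 lay below all chow arrays and high-fat arrays 2, 3 and 5 above them. This gave a log2 fold change of 0.24 ± 0.33 (SE, limma adjusted p = 0.749).

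Col11a2, the alpha 2 chain of type XI, behaved alike on probe A_44_P527024. It read −3.18, −1.81, −1.79, −3.49 and −1.61 on the high-fat arrays, against −2.77, −2.95 and −2.59 on the chow arrays. Within the high fat diet scan 1 was below scan 2 by 1.60 on the log2 scale, and the diet difference was 0.40 ± 0.46 (SE, limma adjusted p = 0.699). With the arrays of scan day 1 alone, which leaves scans 2 and 3, it was 1.04 (adjusted p = 0.0105); with the high-fat arrays of scan 1 alone against chow it was −0.57 (adjusted p = 0.131). For Col2a1 the same pair of fits gave 0.67 and −0.40 (adjusted p = 0.0249 and 0.264).

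The other Col11a2 probe, A_64_P106598, was kept through the high-fat arrays alone. It read −5.29, −4.82, −4.58, −5.20 and −4.31 on the high-fat arrays, all well above background. On the chow arrays it read −7.09, −5.62 and −5.85, none of them well above background. All high-fat values lay above all chow values. Its high-fat mean was 1.04-fold above the chow floor (limma adjusted p = 0.0911 for the fit). As that floor is not a detection limit, this is no lower bound, and no measured fold is given. The probe passed with the authors' value table (adjusted p = 0.0479), with array weights (0.0231) and with scan day 1 alone (0.0402). Under the normexp background its fitted value was −0.62, or −0.32 relative to all probes. With normexp and quantile normalization together the fitted value was 0.05, so the negative sign depended on the scaling.

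Type IX coats the fibrils of cartilage. Col9a2, its alpha 2 chain, read −3.19, −2.91, −3.78, −3.18 and −3.44 on high-fat arrays 1 to 5, against −4.16, −4.33 and −3.65 on the 3 chow arrays, above background on all. Chow array 3 lay within the high-fat range. The log2 fold change was 0.75 ± 0.24 (SE), a ratio of 1.68 with a 95% interval from 1.15 to 2.44 (limma adjusted p = 0.131), and it passed only with array weights (0.88, adjusted p = 0.0422). Under the normexp background its fitted value was −0.22, or 0.08 relative to all probes.

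Col9a1, the alpha 1 chain, had 3 probes, of which 1 gave a measured level on all arrays. A_43_P16279, above background on every array, read −1.52, −1.02, −0.78, −1.86 and −0.76 on the high-fat arrays, against −1.19, −1.42 and −1.42 on the chow arrays, for a log2 fold change of 0.15 ± 0.27 (SE, limma adjusted p = 0.811). A_64_P074649 read −6.09, −5.02, −4.82, −5.85 and −4.53 on the high-fat arrays, against −5.26, −7.09 and −5.17 on the chow arrays. It was detected on 4 high-fat and 0 chow arrays, and A_43_P11136 on 3 and 1. Neither passed (limma adjusted p = 0.596 and 0.62), and no fold is given for them. On each of the 3 probes, high-fat arrays 1 and 4 lay below high-fat arrays 2, 3 and 5.

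**Figure D3:**
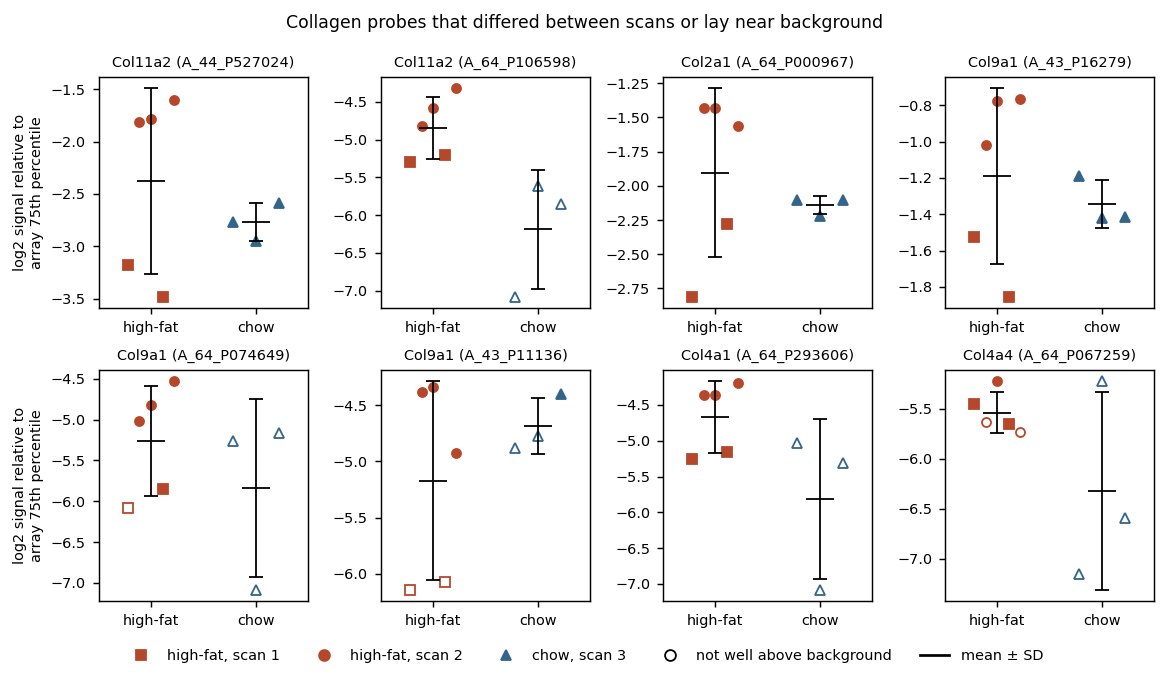
Log2 signal relative to the array's 75th percentile (y axis) on each array for 8 collagen probes that differed between scans or lay near background; symbols as in the plot of the lower collagens, with open symbols where the probe was not well above background, and bars for mean ± SD (n = 5 and 3). Squares (scan 1) lie below circles (scan 2) in all panels but that of Col4a4, and the chow arrays of the dim Col11a2 and Col4a1 probes are all open.

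Over the 21 collagen probes, the high-fat arrays of the 2 scans did not overlap for 10, beside 58.5% of all probes, and scan 1 was the lower for 9 of these 10; 38.2% of all probes had scan 1 lower without overlap, so the collagens were close to the background. The median difference of scan 1 minus scan 2 was −0.10 over the 15 probes above background everywhere and −0.79 over the other 6; over all probes of those kinds it was −0.05 and −0.70. The split by scan was thus found across probes of all kinds, and the part of scan in the collagen values was not tested.

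Of the remaining members, Col8a1, a chain of the short-chain type VIII of vessel walls, was above background on 5 high-fat arrays and 1 chow array. Its high-fat values ran from −5.12 to −4.23 and its chow values from −5.74 to −3.80, and the log2 fold change was 0.00 ± 0.40 (SE, limma adjusted p = 0.997). The remaining 4 probes, of 3 genes, were not kept. Col7a1, the chain of the anchoring fibrils of skin, and Col13a1, a transmembrane collagen, were well above background on high-fat array 3 only. Col23a1, also transmembrane, was above background on high-fat arrays 3 and 5 with probe A_44_P456479 and on high-fat array 3 with A_64_P097892. Array 3 had the largest share of probes above background of all 8 arrays, 92.7%.

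Brightness and diet difference were related across all probes. In 10 bins of equal size by mean signal, the dimmest bin had a median log2 fold change of 0.53 and the brightest one of −0.24. Set beside the median of their own bin, Col18a1 (−0.31 against −0.24), Col4a1 probe A_64_P149501 (−0.11 against −0.14) and Col14a1 probe A_64_P093189 (−0.09 against −0.14) lay close to probes of like brightness. Col3a1 (−0.76 against −0.24), Col1a1 (−0.53 against −0.03 and −0.89 against 0.03), Col1a2 (−0.46 against −0.14) and Col6a2 (−0.46 against −0.14) lay below it. Col9a2 (0.75 against 0.06) and Col5a3 (0.57 against 0.06) lay above it.

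**Figure D4:**
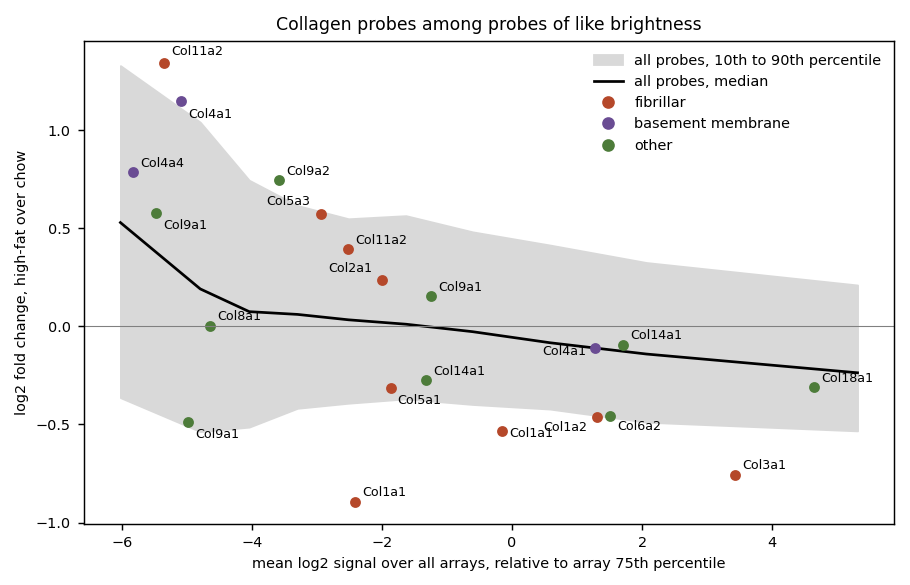
Log2 fold change of high fat diet over chow (y axis) against mean log2 signal over all 8 arrays (x axis) for the 21 kept collagen probes, coloured by class, with the median (line) and the 10th to 90th percentile (band) of all probes in 10 bins of brightness. The line falls from 0.53 to −0.24; Col3a1 and both Col1a1 probes lie below the band, Col9a2 and the dim Col11a2 probe lie above it, and the dim Col4a1 probe lies at its upper edge.

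The genes that build, cross-link, bind and break down collagen gave few calls. Of 78 measured genes in these lists, 2 passed and both were higher on the high fat diet, beside 3.0% of all probes higher. The lists were chosen by function, with earlier results of these data known. Of the 2, Pdgfb was detected on no chow array and was kept through the high-fat arrays alone. The median log2 fold change of the 78 was −0.11. By list, 0 of 26 genes of chain modification, procollagen cleavage and cross-linking passed (median −0.11), 0 of 16 of breakdown and its inhibitors (−0.01), 0 of 6 receptors (−0.09), 1 of 18 of associated matrix (−0.12), and 1 of 12 of TGF-beta and PDGF signalling (−0.09). At an unadjusted p under 0.05 there were 15 of the 78, or 19.2%, beside 20.1% of all probes. The diets did not overlap for 13 of the 78 (3 higher, 10 lower), or 16.7%, beside 16.9% of all probes.

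Lama5 encodes the alpha 5 chain of laminin, which lies beside type IV collagen in basement membranes. It read −1.74, −1.80, −0.34, −1.78 and −1.73 on high-fat arrays 1 to 5, against −3.21, −3.72 and −3.54 on the 3 chow arrays. High-fat array 3 stood above the other 4, and all high-fat values lay above all chow values. Lama5 was 4.03-fold higher (log2 fold change 2.01 ± 0.35 SE, limma adjusted p = 0.0201). It lost its call without chow array 1, 2 or 3 (adjusted p = 0.0585, 0.0775 and 0.0786), while its log2 fold change stayed between 1.73 and 2.15 with any single array left out. It also lost it with the normexp background (0.92, adjusted p = 0.192) and with scan as a random block (adjusted p = 0.37). Relative to all probes, the normexp value was 1.22.

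Pdgfb encodes a growth factor that drives division of stellate cells. Its probe A_64_P080479 read −5.03, −4.53, −4.47, −4.52 and −4.14 on the high-fat arrays, all above background, and −5.82, −5.35 and −6.57 on the chow arrays, none above background. It was kept through the high-fat arrays alone, and its p sets detected high-fat readings against undetected chow readings (limma adjusted p = 0.0421). Its high-fat mean was 1.28-fold above the chow floor in the main processing. As that floor is not a detection limit, this is no lower bound on the ratio of means, and it has no error of its own. A second probe of the gene, also detected on no chow array, did not pass (adjusted p = 0.589), and the call was kept in 2 of 8 fits that left out a single array. Under the normexp background the first probe had a fitted value of −0.62, or −0.32 relative to all probes (limma adjusted p = 0.248 for the former).

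Markers of the cells that make collagen did not pass. Of 9 measured stellate cell markers 0 passed (median log2 fold change −0.10, from −0.64 for Pdgfrb to 0.44 for Lrat, neither overlapping between diets), and their summed signal, in units of the array's 75th percentile, lay between 49.1 and 61.9 in high-fat liver and between 57.9 and 66.9 in chow liver, highest on chow array 1. Of 5 myofibroblast markers 0 passed (median 0.12), with sums from 2.35 to 2.73 in high-fat liver and from 2.01 to 2.45 in chow liver. Acta2, the smooth muscle actin of activated stellate cells, had a log2 fold change of 0.44 ± 0.20 (SE, limma adjusted p = 0.271). Of 6 portal fibroblast markers 0 passed (median −0.13; sums from 1.56 to 2.75 on high-fat arrays and from 2.15 to 2.40 on chow arrays). Of 2 chondrocyte markers kept, one being Col2a1 itself, 0 passed. Nor did any of 8 hepatocyte, 5 endothelial, 7 Kupffer cell, 5 cholangiocyte, 2 mesothelial, 4 smooth muscle or 2 adipocyte markers. The median log2 fold change was −0.37 for the hepatocyte list, whose 8 values were all negative (−0.61 to −0.19). All 8 lay in the brightest of the 10 brightness bins, where the median of all probes was −0.24. Medians were −0.11 for endothelial, 0.13 for Kupffer cell, −0.01 for cholangiocyte, −0.23 for mesothelial, −0.16 for smooth muscle and 0.17 for adipocyte markers. In bulk tissue, fewer cells of a type and less RNA per cell cannot be told apart, and the part of cell make-up in the collagen values was not tested.

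**Figure D5:**
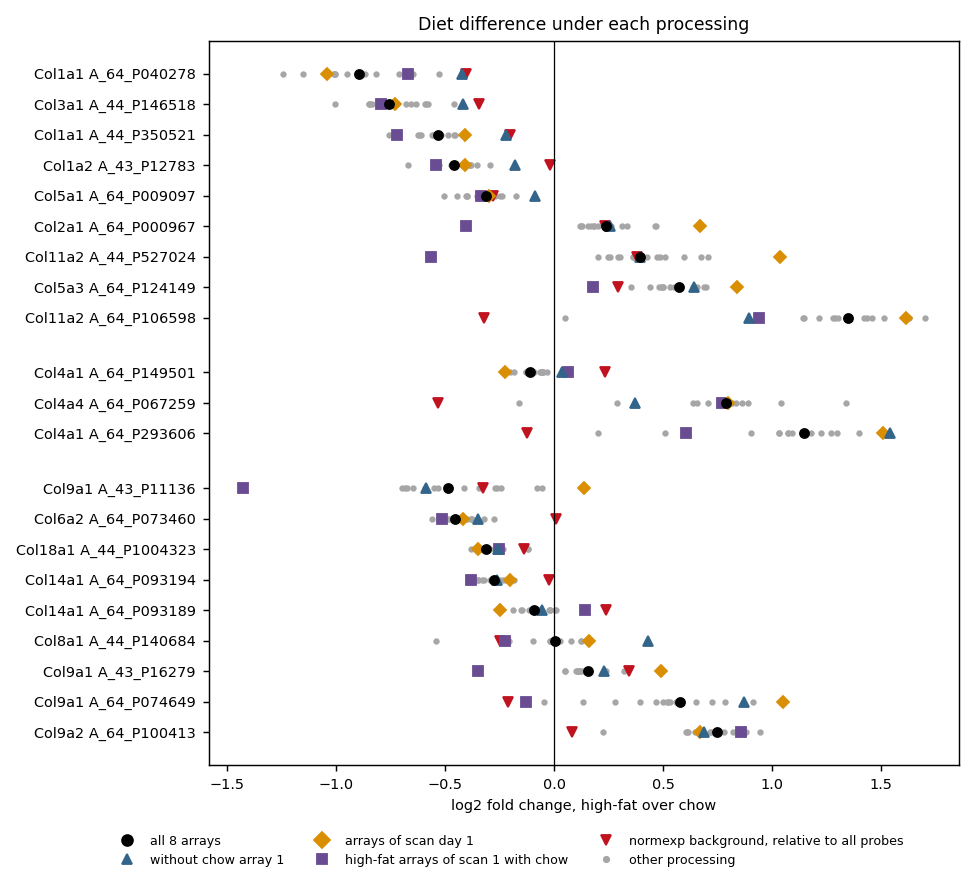
Log2 fold change of high fat diet over chow (x axis) of each kept collagen probe (rows) under each processing, with the fit on all 8 arrays in black and 4 alternatives marked by symbol. The Col1a1, Col1a2, Col3a1 and Col5a1 points stay left of 0 and move toward it without chow array 1, while the Col2a1 and bright Col11a2 points lie on opposite sides of 0 for the 2 choices of high-fat scan.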

How the data were processed

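Single-colour Agilent arrays were read with Agilent Feature Extraction 11.0.1.1, per the submitters' processing notes. Per the file headers, the deposited processed signal is an intensity, background-subtracted and detrended within its own array and not scaled between arrays. The authors' deposited log2 values have, to 2 decimals, a median of 6.42 and a 75th percentile of 9.27 in every column; how they were made is not given in the sources used here. The deposited flags mark each spot as 0 or 1.

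Outlier spots were left out (331 to 550 for each array; 0 spots were saturated), replicate spots were averaged on the log2 scale, and each array's 75th percentile was subtracted. Accessions were matched to RefSeq (GRCr8), which named 17997 of 30367 probes; coordinates of the array design were not used. Probes with at least 0.5 of their spots above background on at least 3 arrays were fitted with limma 3.58.1 (R 4.3.3, two-sided), each collagen probe apart. In the other lists each gene was given its brightest probe. Chow floors were set per chow array at the higher of the probe's own value and the dimmest detected probe. Brighter probes can go undetected, so such a floor is not a detection limit. On data simulated for this comparison over 25629 probes, the fit called 78 of 100 probes changed by 2 on the log2 scale and 21 of 100 changed by 1. The simulated noise was independent between arrays and held no scan effect, unlike the arrays here, so these shares need not hold for the measured data. The normexp background (offset 50) used median signals, since the files hold no mean signal. No pair of arrays was identical (0 pairs). The members, lists and alternatives were chosen with earlier results of these data known. Named with values on every array were Col1a1, Col1a2, Col3a1, Col5a1, Col4a1, Col6a2, Col14a1 and Col18a1, and in each class the 2 probes of largest absolute change. Col2a1, Col5a3, the brighter probes of Col9a1 and Col11a2, and the markers Acta2, Lrat and Pdgfrb were added after their values were seen.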

Additional observations from a re-analysis of the deposited data

How the results depend on the processing

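Over 21 collagen probes and 429 refits, the sign and the side of the threshold held in 392, the sign held and the threshold was passed in 9, and the sign turned in 28. Here the sign under normexp is that of the value relative to all probes. Of all probes, 884 passed; 136 did so with a normexp background, 2317 with normexp and quantile normalization together, 513 among probes above background on all arrays, 2688 with array weights, 76 with scan as a random block, 3159 on scan day 1 alone, 2003 with the high-fat arrays of scan 1 alone, and 402 to 864 with a single array left out (402, 458 and 462 without chow array 1, 2 or 3; 481 without high-fat array 2). In place of 0 collagen probes, 1 passed in the authors' value table and 2 with array weights. On scan day 1 alone 4 passed (both Col11a2 probes, Col2a1 and Col5a3). With scan 1 alone 1 passed (Col9a1 A_43_P11136). That Col9a1 probe was detected on 3 high-fat arrays and 1 chow array, so its call rests in part on undetected readings. With a single array left out 0 to 1 passed. With scan as a random block 0 collagen probes had an unadjusted p under 0.05, against 6.77% of all probes. In place of 2 machinery genes, 0 passed with normexp, 9 with normexp and quantile normalization (1 higher, 8 lower), 1 among probes above background on all arrays and with the percentile over those probes, 6 with array weights, 0 with scan as a random block, 5 on scan day 1, 4 with scan 1 alone, and 0 to 2 with a single array left out.

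The fibrillar median of −0.31 was −0.54 with scan 1 alone and −0.51 to −0.090 with a single array left out, −0.090 being without chow array 1. The basement membrane median of 0.79 was −0.13 with normexp (relative to all probes), −0.066 with normexp and quantile normalization, −0.11 above background on all arrays, 0.29 in the authors' table, 0.34 with 1 probe for each gene, 1.03 with array weights, and 0.37 to 0.83 with a single array left out. The median of the other collagens, −0.09, was 0.14 on scan day 1.

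Signs turned as follows, with normexp values relative to all probes. With normexp: Col11a2 A_64_P106598 −0.32, Col14a1 A_64_P093189 0.24, Col4a1 A_64_P293606 −0.13 and A_64_P149501 0.23, Col4a4 −0.53, Col6a2 0.010, Col8a1 −0.25, Col9a1 A_64_P074649 −0.21. Of these, the fitted values of Col14a1 A_64_P093189, Col4a1 A_64_P149501 and Col6a2 stayed negative (−0.06, −0.07 and −0.29). The fitted normexp values of Col2a1, Col5a3 and Col9a2 turned negative (−0.06, −0.004 and −0.22), but their values relative to all probes did not. With normexp and quantile normalization: Col4a4 −0.16. With scan 1 alone: Col11a2 A_44_P527024 −0.57, Col14a1 A_64_P093189 0.14, Col2a1 −0.40, Col4a1 A_64_P149501 0.064, Col8a1 −0.23, Col9a1 A_43_P16279 −0.35 and A_64_P074649 −0.13. On scan day 1: Col9a1 A_43_P11136 0.14. Col8a1, at 0.00, was −0.22 with quantile normalization, −0.21 in the authors' table, −0.22 with array weights and −0.021 with scan as a random block. With a single array left out, Col14a1 A_64_P093189 ran from −0.19 to 0.0055, Col4a1 A_64_P149501 from −0.23 to 0.035, Col8a1 from −0.54 to 0.43 and Col9a1 A_64_P074649 from −0.048 to 0.91. The cause was not tested.

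Replicate numbers 1 to 3 occur in both diets. Deviations of same-numbered arrays correlated at 0.05, 0.03 and 0.06. The same-numbered chow array was the best match for high-fat arrays 1 and 3 but not for high-fat array 2. With 3 chow arrays, these values cannot settle whether same-numbered arrays are paired. With a replicate block 0 of all probes, 0 collagen probes and 0 machinery genes passed (3435 probes had an unadjusted p under 0.05, and 1 of the collagen probes), and Col14a1 A_64_P093189 turned to 0.0081.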

Other observations

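Of the 78 genes that build, bind or break down collagen or induce it, 10 had all high-fat values below all chow values. None of the 10 passed. Of all probes, 8.97% had all high-fat values below all chow values. In either direction the diets did not overlap for 16.7% of the 78 and 16.9% of all probes. Values are given here for 6 of the 10, picked after their values were seen. Bmp1, the proteinase that trims the end of procollagen, averaged 3.17 on the high-fat arrays and 4.11 on the chow arrays (log2 fold change −0.94 ± 0.23 SE, limma adjusted p = 0.0643). Plod1, a lysyl hydroxylase that prepares collagen for cross-linking, averaged 1.79 and 2.27 (−0.48 ± 0.12 SE, 0.0754), and its 5 high-fat values lay within 1.77 to 1.81. Mmp2, a gelatinase, and Timp2, an inhibitor of such enzymes, had values of −0.79 ± 0.24 and −0.58 ± 0.18 (SE, limma adjusted p = 0.112 and 0.12). Tgfb1, an inducer of collagen genes, was at −0.61 ± 0.18 and Pdgfrb, a receptor on stellate cells, at −0.64 ± 0.20 (SE, limma adjusted p = 0.109 and 0.121). Lrat, the retinol-esterifying enzyme of stellate cells, went the other way, at 0.44 ± 0.14 (SE, limma adjusted p = 0.135). The lists these genes come from had medians of −0.11 (assembly), −0.01 (breakdown) and −0.09 (TGF-beta and PDGF signalling), with assembly members from −0.94 to 0.89. Over all probes in the same brightness bin, the median was −0.24 for Bmp1 and −0.14 for Plod1 and Timp2. It was −0.08 for Pdgfrb, −0.03 for Mmp2 and 0.01 for Tgfb1. Values of these genes under other processing are not given here.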
